A study of Mus musculus with 60 samples.

Results

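Klk6, Klk8 and Klk10 are 3 kallikrein genes that lie close together on mouse chromosome 7. They were taken as 3 rows of the 24508 in the deposited table of hippocampal RNA levels, by name, because their levels were already known to be lower in R6/1 mice. Their difference between the genotypes is therefore described here without a test. The other 24 kallikrein rows of the table serve as the background.

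Hippocampal tissue of wild-type (WT) mice was set beside that of R6/1 mice, a transgenic model of Huntington's disease that expresses the first exon of human huntingtin with an expanded CAG repeat, under the human promoter and beside the intact mouse gene. All mice were 30 weeks old, and both genotypes were on a mixed background of equal CBA and C57BL/6 parts. Messenger RNA of 9 WT and 9 R6/1 samples, described in the labels as independent biological replicates, was sequenced. Lamin B1, which lines the inner nuclear membrane, was mapped by ChIP on 3 pools of 5 mice for WT and for R6/1, represented here by 1 list of lamin B1 domains per genotype.

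Kallikreins are secreted serine proteases. They are made as inactive precursors, become active when a short propeptide is removed outside the cell, and cut adhesion molecules, growth factor precursors and protease-activated receptors. Klk8, also called neuropsin, is made by hippocampal pyramidal neurons and is known for activity-dependent cleavage of synaptic adhesion molecules and of neuregulin-1. Klk6, also called neurosin, is made in brain largely by oligodendrocytes and by some neurons, and can cut myelin basic protein. Klk10 was first described in breast epithelium, and its role in brain is less well defined.

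The 3 genes are neighbours on the plus strand of chromosome 7, separated by Klk9 and Klk7. On build NCBIM37 (mm9) with GENCODE annotation, Klk10 (ENSMUSG00000030693.9) runs from 51036424 to 51040780 and has 6 annotated exons. Klk8 (ENSMUSG00000064023.3) runs from 51052947 to 51059192 with 5 exons, and Klk6 (ENSMUSG00000050063.10) from 51079869 to 51087397 with 7. From the start of Klk10 to the end of Klk6 is 51.0 kb, within a kallikrein cluster of 27 genes that spans 539.2 kb (50945788 to 51484987). The sequences just before the starts of the 3 genes are shown because the genes are neighbours with lower levels in R6/1, and their upstream sequences can be read side by side. They come from RefSeq on GRCm38.p6, plus strand. The window of Klk10 is chr7:43780804-43781053, that of Klk8 chr7:43797327-43797576, and those of the first and second RefSeq starts of Klk6 are chr7:43824294-43824543 and chr7:43825200-43825449. Each window holds the 250 bases before the start. Of the window at the first start of Klk6 the first 205 bases are printed, since the rest lies in an annotated exon of the gene on NCBIM37. Capitals mark TTAAAA and the GC box GGGCGG, on either strand.
Klk10: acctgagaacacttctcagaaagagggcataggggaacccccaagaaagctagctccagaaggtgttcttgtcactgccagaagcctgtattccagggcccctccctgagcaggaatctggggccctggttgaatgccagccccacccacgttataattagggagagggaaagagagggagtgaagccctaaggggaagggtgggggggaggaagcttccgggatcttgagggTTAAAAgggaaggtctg
Klk8: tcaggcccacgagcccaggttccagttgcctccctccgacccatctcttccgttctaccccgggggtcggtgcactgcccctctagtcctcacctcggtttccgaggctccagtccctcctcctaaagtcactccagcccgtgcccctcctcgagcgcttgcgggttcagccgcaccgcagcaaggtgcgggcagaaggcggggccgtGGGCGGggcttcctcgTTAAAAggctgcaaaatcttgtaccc
Klk6 first start: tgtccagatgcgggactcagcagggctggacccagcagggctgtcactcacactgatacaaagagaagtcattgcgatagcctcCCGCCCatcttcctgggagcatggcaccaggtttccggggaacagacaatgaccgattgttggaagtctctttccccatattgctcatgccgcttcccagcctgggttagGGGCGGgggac
Klk6 second start: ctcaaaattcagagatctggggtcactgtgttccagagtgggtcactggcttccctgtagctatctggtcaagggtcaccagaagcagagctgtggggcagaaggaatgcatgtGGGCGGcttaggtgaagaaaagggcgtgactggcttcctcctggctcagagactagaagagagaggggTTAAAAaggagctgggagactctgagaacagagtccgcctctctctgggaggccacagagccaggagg

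The upstream sequences differed in base composition. The window of Klk8 held 18 CpG dinucleotides and was 65.2% G or C, the highest CpG number among the 28 RefSeq windows of kallikrein genes, whose median was 2. The window of Klk10 held 2 CpG and was 56.0% G or C. The windows of Klk6 held 7 CpG (55.2% G or C) at the first start and 3 CpG (55.6%) at the second. Over all 32851 RefSeq windows of this length the medians were 6 CpG and 52.4% G or C.

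TTAAAA, a run of letters chosen after the sequences had been seen, began at position -17 before Klk10, at -26 before Klk8 and at -68 before the second start of Klk6, counted back from the start. It was absent from the window at the first start of Klk6, and 17.7% of all windows hold it on either strand. GGGCGG was in the window of Klk8 (position -42) and in both windows of Klk6, but not in that of Klk10, and 32.7% of all windows hold it. None of the 4 windows held TATAAA (12.4% of all windows), CCAAT (33.8%), the E-box CACGTG (6.0%), the AP-1 letters TGACTCA (4.5%) or the core of the cAMP response element TGACG (17.8%). No marked match overlaps another. Of the printed bases before Klk8, 157 also lie in an annotated exon of a noncoding transcript on the opposite strand, described further on.

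Between 12299434 and 16457022 reads per WT library and between 13260311 and 16736544 per R6/1 library fell on genes, recovered from the deposited values. Levels are in RPKM, reads per kilobase of transcript scaled for depth, and differences are R6/1 minus WT in log2(RPKM + 0.5), a scale that makes changes of low genes look smaller than they are. Of the 14446 genes that averaged 0.5 RPKM or more, 23.5% were lower and 24.8% higher in R6/1 by limma at a Benjamini-Hochberg adjusted p under 0.05. Scaling every library by the total of its own reads split the calls into 5113 higher and 2524 lower, against 3586 and 3394 on the authors' scaling. Markers of hippocampal neurons were present: all 6 CA1, all 8 CA2 and CA3 and all 6 dentate granule genes examined passed the level filter. In these bulk samples fewer cells of a type and less RNA per cell cannot be told apart.

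Klk8 was the most abundant of the 3, and it was lower in every R6/1 library than in any WT library. In WT the lowest library had 5.88 RPKM, the median 8.21 and the highest 9.76, from 117 to 193 reads per library. In R6/1 the lowest was 1.97, the median 3.36 and the highest 4.54 RPKM, from 36 to 91 reads. The groups did not overlap: WT replicate 2, the lowest WT library, stood above R6/1 replicate 4, the highest of R6/1. The mean was 8.29 ± 1.29 RPKM in WT and 3.25 ± 0.791 in R6/1 (SD over 9 libraries each), 60.8% lower. The log2 difference was -1.24 with a standard error of 0.119, rank 57 among the decreases of the 14446 genes. The level of Klk8 in WT lay at percentile 50.1 of the tested genes, so it is a gene of middling abundance in hippocampus.

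Klk6 was low and uneven. Its WT libraries ran from 0.450 RPKM in replicate 7 to 2.90 in replicate 6, with a median of 1.37, and held between 10 and 59 reads. Its R6/1 libraries ran from 0.202 RPKM in replicate 3 to 1.13 in replicate 5, with a median of 0.469, and held between 5 and 23 reads. Here the groups overlapped: 5 WT libraries stood above every R6/1 library, and 4 R6/1 libraries stood below every WT library. The mean was 1.48 ± 0.759 RPKM in WT and 0.545 ± 0.292 in R6/1 (SD over 9 libraries each), 63.2% lower. The log2 difference was -0.87 (standard error 0.21), rank 213 among the decreases.

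Klk10 had the largest relative decrease of the 3. Its WT libraries ran from 0.771 RPKM in replicate 9 to 2.56 in replicate 6, with a median of 1.28, and held 13 to 50 reads. Its R6/1 libraries held 0 to 8 reads each, with a median of 0.215 RPKM and a highest value of 0.337 in replicate 3. R6/1 replicate 1 had 0 reads, a count that allows up to 3 reads or 0.135 RPKM in that library by counting error alone. The groups did not overlap, and the highest R6/1 library stayed below the lowest WT library. The mean was 1.32 ± 0.510 RPKM in WT and 0.193 ± 0.102 in R6/1 (SD over 9 libraries each), 85.3% lower, a 6.82-fold ratio of means. The log2 difference was -1.36 (standard error 0.136), rank 40 among the decreases, and it grew to -2.31 with a pseudocount of 0.1 and shrank to -0.94 with a pseudocount of 1.

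Klk8 and Klk10, but not Klk6, thus had every R6/1 library under every WT library, which 6.38% of the tested genes had. The genes were chosen on this contrast, so nothing is read from that count. On the authors' deposited table, whose fold changes are shrunken, the log2 differences were -1.25 for Klk8, -0.96 for Klk6 and -1.90 for Klk10. Leaving out each library in turn gave log2 differences between -1.30 and -1.17 for Klk8, between -0.99 and -0.76 for Klk6 and between -1.42 and -1.27 for Klk10. The weakest value of Klk10 came without WT replicate 6, the library with the highest WT level of all 3 genes.

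**Figure D1:**
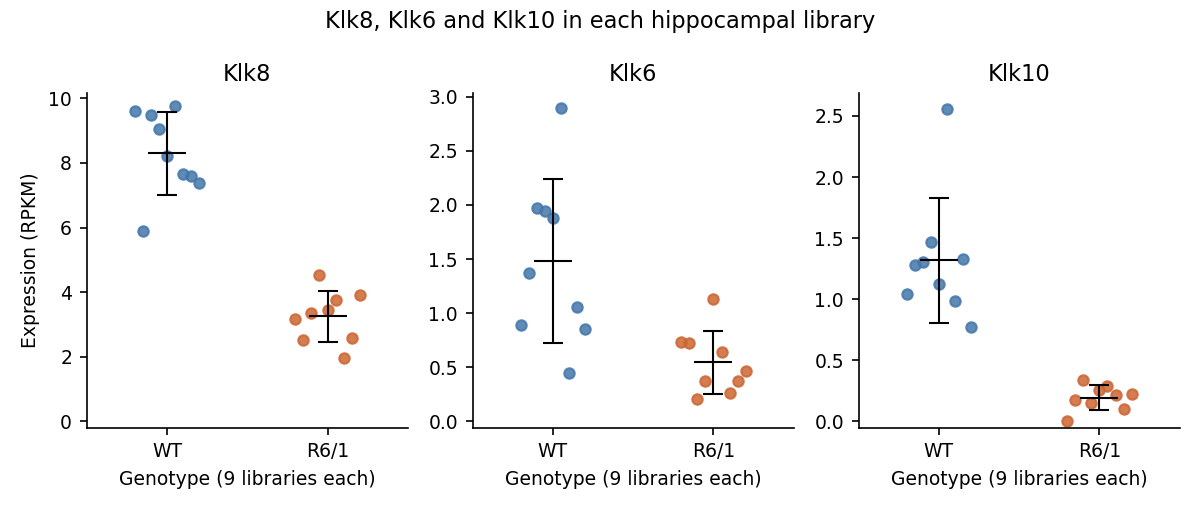
Level of Klk8, Klk6 and Klk10 (RPKM, a separate linear axis per gene) in each of 9 WT and 9 R6/1 hippocampal libraries, with points for libraries in replicate order and black marks for the mean ± SD. The genotypes are apart for Klk8 (lowest WT 5.88, highest R6/1 4.54) and Klk10 (0.771 and 0.337) and overlap for Klk6 (0.450 and 1.13).

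The order of the 3 levels was compared per length, in RPKM. Klk8 was highest in 9 of 9 WT and in 9 of 9 R6/1 libraries, and its mean was 5.6-fold that of Klk6 in WT and 5.96-fold in R6/1. Against Klk10 the ratio of means was 6.29 in WT and 16.8 in R6/1. Klk6 and Klk10 were neighbours in the order, and the difference between them was not tested. In WT their means had a ratio of 1.12, their ranges overlapped, and Klk6 was the higher in 6 of 9 libraries. In R6/1 Klk6 was the higher in 8 of 9 libraries, with a ratio of means of 2.82 and ranges that still overlapped.

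The libraries of one genotype varied more for Klk6 than for Klk8. The coefficient of variation of Klk6 was 51.3% in WT and 53.6% in R6/1, against 15.6% and 24.3% for Klk8 and 38.7% and 53.0% for Klk10. Counting error is part of this spread, since few reads fell on Klk6 and Klk10. The SD between libraries was 2.77 times the counting error for Klk6 in WT and 1.86 times in R6/1. For Klk8 it was 1.94 and 1.99 times, and for Klk10 1.93 times in WT and 1.07 times in R6/1.

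Of the other 24 kallikrein rows, 0 reached the level filter, so no call was made on them in the filtered fit. In all, 2083 WT reads and 818 R6/1 reads fell on kallikrein genes. Klk6, Klk8 and Klk10 held 90.9% of these in WT and 92.4% in R6/1, and Klk8 alone held 67.1% and 74.7%. Among the others, 8 had 0 reads in all 18 libraries, 16 had at least 1 read and 6 had 10 or more. The 50-base stretches of the transcripts of Klk6, Klk8 and Klk10 (1448, 1273 and 1305) were found in 0 protein-coding transcripts of other genes. Only exact matches on the transcript strand were sought, so exact reads of that length would not be split with a protein-coding paralogue. Noncoding transcripts were not searched, and Klk8 shares exon bases with a noncoding transcript on the opposite strand, described further on.

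The genes between the 3 had few reads, and these were lower in R6/1. Klk9, which sits between Klk10 and Klk8, had 74 reads over the WT libraries and 16 over those of R6/1. Its level was 0.401 ± 0.208 RPKM in WT (lowest 0.152, median 0.337, highest in replicate 1) and 0.0760 ± 0.0509 in R6/1 (lowest 0, median 0.0816, highest 0.134; SD over 9 libraries each). No R6/1 library reached the lowest WT library. The nearest were WT replicate 8 at 0.152 RPKM and R6/1 replicate 8 at 0.134, with 3 reads in each. Of the genes that passed the level filter, which Klk9 did not, 6.38% had every R6/1 library under every WT library. In the limma fit without the level filter, where 17.7% of 20791 genes were called lower, Klk9 had a log2 difference of -0.62 (standard error 0.109) and an adjusted p of 0.000185. The authors' deposited table, in which 20.4% of genes were lower, gave -1.18 and an adjusted p of 2.79e-06.

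Klk7, a chymotrypsin-like kallikrein best known from skin, sits between Klk8 and Klk6. It had 34 WT reads and 5 R6/1 reads, with means of 0.140 ± 0.0782 and 0.0176 ± 0.0231 RPKM (SD over 9 libraries each), and its groups overlapped. Without the level filter its limma log2 difference was -0.30 with an adjusted p of 0.000707, and the authors' deposited table gave -0.90 with an adjusted p of 0.000295. Klk9 and Klk7 were the 2 other kallikreins called by either analysis. They were 2 of 16 with reads in the unfiltered fit, where 17.7% of all genes were called lower. In the authors' deposited table they were 2 of 6 with an adjusted p, where 20.4% of genes were lower.

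The remaining kallikreins had few reads. Upstream of Klk10, Klk11 had 25 reads in WT and 16 in R6/1, with an unfiltered limma adjusted p of 0.168, and Klk12 had 21 and 7 with an adjusted p of 0.0817. Klk13 and Klk14 had 4 and 8 WT reads against 1 and 4 in R6/1. Beyond Klk6, Klk5 had 2 reads in each genotype, Klk4 had 2 in WT and 0 in R6/1, and Klk15 had 0. The 15 rows of Klk1 and the Klk1b genes, which in mice include the salivary gland kallikreins, held at most 10 reads each over all libraries, and 8 of them had any. None of these rows passed in either analysis, and Klk1b paralogues are so alike that their reads may be split between them.

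**Figure D2:**
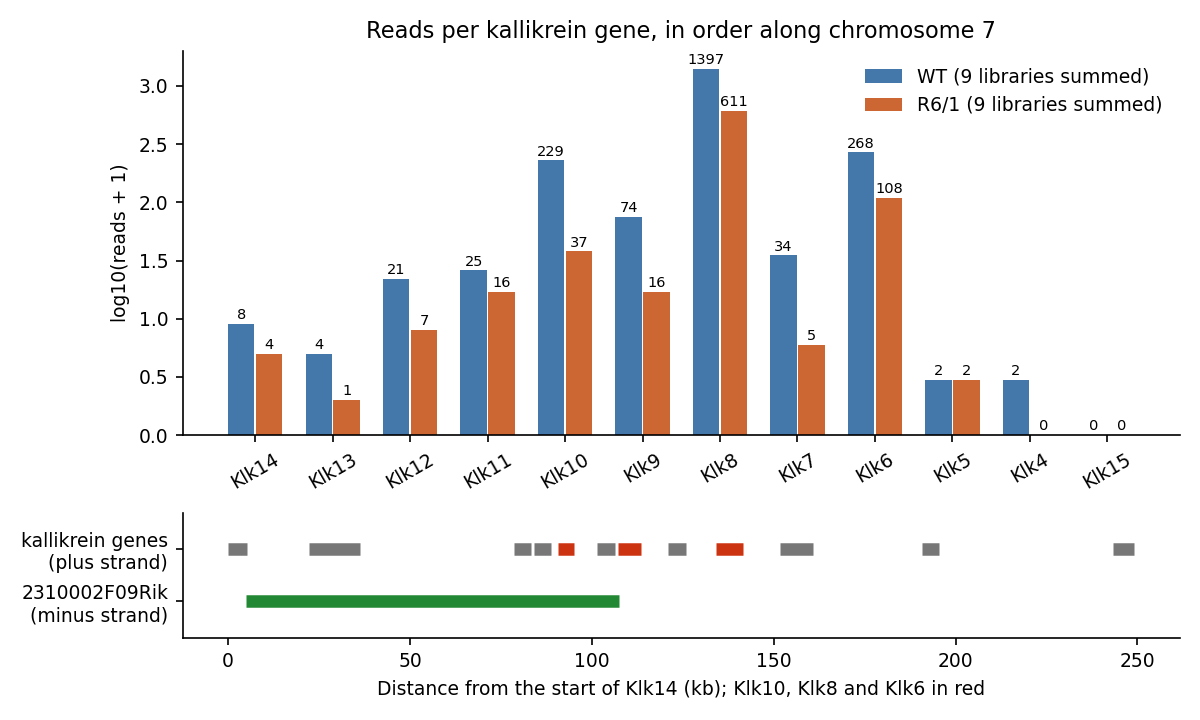
Upper panel: reads summed over 9 libraries per genotype for the 12 kallikrein genes from Klk14 to Klk15, in their order on the chromosome (bars, log10 of reads + 1, with the reads printed above). Lower panel: positions of these genes and of the antisense noncoding transcript in kb from the start of Klk14. Klk8, with 1397 WT and 611 R6/1 reads, stands above the others, and Klk9 and Klk7 on either side of it have 74 and 34 WT reads.

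A long noncoding RNA, 2310002F09Rik, crosses this stretch on the opposite strand. It is annotated from 50950579 to 51053315 on the minus strand, 102.7 kb with 9 exons, and starts 368 bases inside Klk8, so that it runs from Klk8 back past Klk9 and Klk10 to Klk14. It does not reach Klk7 or Klk6. Its WT libraries had 0.678 to 1.51 RPKM (median 1.16, 372 reads in all) and its R6/1 libraries 0.134 to 0.326 (median 0.207, 76 reads). Every R6/1 library lay under every WT library, which 6.38% of the tested genes had. The mean was 1.15 ± 0.228 RPKM in WT and 0.213 ± 0.0603 in R6/1 (SD over 9 libraries each), a 5.42-fold ratio. The limma log2 difference was -1.20 (standard error 0.0915, adjusted p 2.35e-09). Its annotated exons share 369 bases with those of Klk8 (27.9% of the exon bases of Klk8). They share 287 bases with those of Klk14 (22.6% of the exon bases of Klk14). With those of the other kallikreins, Klk10 and Klk6 among them, they share 0. The libraries were stranded, per the labels, but whether counting used the strand is not given in the sources used here, so reads on the shared bases of Klk8 or Klk14 may belong to either gene.

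Counted in either direction, the genes around the cluster were called about as often as genes elsewhere. Of 40 genes of the table that start within 500 kb of the cluster and are not kallikreins, 26 were tested, 2310002F09Rik among them, and 12 of these (46.2%) were called by limma, against 48.3% of all genes. In R6/1, 3 of the 26 rose and 9 fell, where 24.8% of all genes tested rose and 23.5% fell. The median log2 difference of the 26 was -0.10 against 0.00 for all genes tested. Within 1 Mb, 26 of 62 (41.9%) were called. Fewer neighbours were called (7) when the level filter was raised to a mean of 2 RPKM, where fewer of them were tested.

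On the side of Klk14, Iglon5, a neuronal adhesion molecule, fell by 0.27 on the log2 scale (adjusted p 0.00375) and Ctu1, a tRNA-modifying enzyme that starts 18.4 kb before the cluster on the chromosome, rose by 0.19 (adjusted p 0.00576). Cd33, a sialic acid receptor of microglia, fell by 0.33 (adjusted p 0.0308), a call lost without WT replicate 5 (adjusted p 0.058), R6/1 replicate 2 (0.0519), R6/1 replicate 4 (0.063) or R6/1 replicate 7 (0.0633). On the side of Klk1 the decreases were larger. Clec11a, a secreted growth factor, went from 2.15 to 0.894 RPKM (log2 difference -0.92, adjusted p 2.53e-08). Shank1, a scaffold of the postsynaptic density, went from 93.5 to 56.9 RPKM (-0.72, adjusted p 1.64e-09), and 1700008O03Rik, whose span overlaps Syt3 on the other strand, fell by 0.68 (adjusted p 2.63e-05). The deubiquitinase Josd2 fell by 0.48 (adjusted p 0.00072) and Fam71e1 by 0.40 (0.0144). Aspdh rose by 0.58 (adjusted p 0.000527) and 1700028J19Rik by 0.48 (0.0048).

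**Figure D3:**
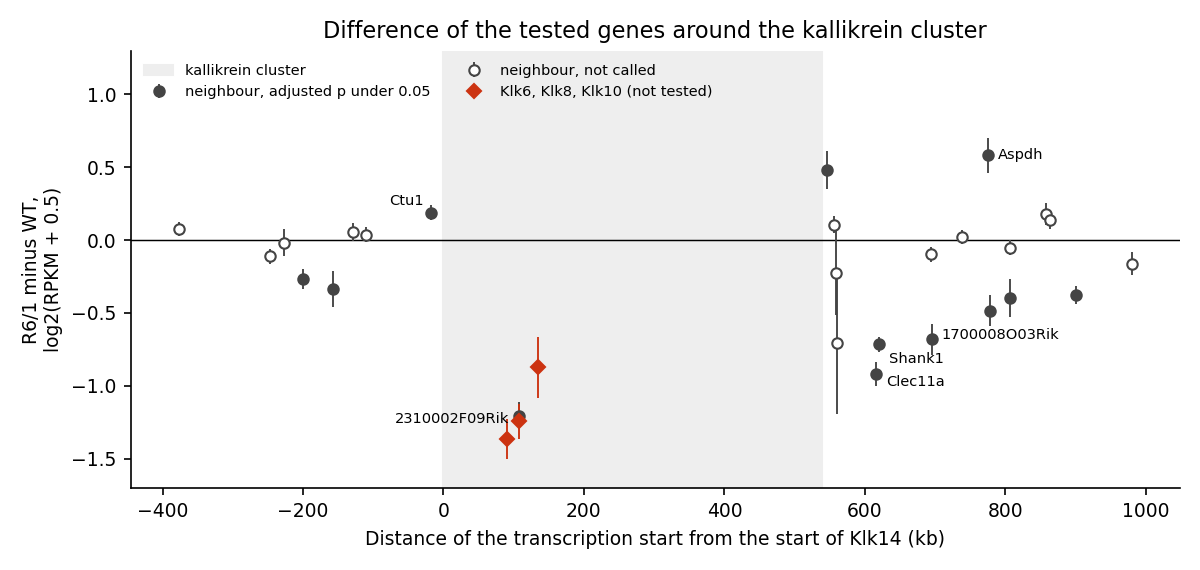
R6/1 minus WT difference (log2 of RPKM + 0.5, with standard error bars) of the 26 tested genes within 500 kb of the kallikrein cluster, by the distance of their start from Klk14 in kb. Filled points passed an adjusted p under 0.05 by limma, open points did not, and diamonds are Klk10, Klk8 and Klk6, which were not tested. The noncoding RNA 2310002F09Rik, at -1.20, lies near Klk8 (-1.24) on this scale, which makes changes of low genes look smaller. Its ratio of WT to R6/1 means was 5.42, against 2.55 for Klk8. The next lowest called neighbour is Clec11a at -0.92.

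Lamin B1 domains, long stretches of chromatin at the nuclear lamina, did not cover the cluster. In the authors' lists, 0 of 13 WT and 0 of 17 R6/1 domains on chromosome 7 overlapped it. The nearest domain on the Klk14 side spanned 46361001 to 50505000 in WT and 46435001 to 50542000 in R6/1, ending 440.8 and 403.8 kb before the cluster. From Klk10 these ends were 531.4 and 494.4 kb away, from Klk8 547.9 and 510.9 kb, and from Klk6 574.9 and 537.9 kb. On the other side the nearest domain began 2905.0 kb past the cluster in WT and 2942.0 kb past it in R6/1. With 1 list per genotype, the shift of these edges has no replicate spread.

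The 3 levels were also compared library by library within the genotypes, with few reads behind Klk6 and Klk10. Over 18 libraries, with each genotype's mean removed, the Pearson correlation was 0.28 between Klk6 and Klk8 (Spearman 0.33), 0.49 between Klk6 and Klk10 (0.36) and 0.26 between Klk8 and Klk10 (0.36). These are descriptions, given without a p, and each pair shares its libraries and their scaling. Klk6 and Klk10 correlated at 0.78 in the 9 WT libraries (Spearman 0.83), and at 0.66 without WT replicates 6 and 7, the farthest for Klk6. They correlated at -0.18 in the 9 R6/1 libraries, where Klk10 has 8 reads or fewer. The pooled value over both genotypes was 0.16 without WT replicates 6 and 7, so it rests on these libraries. Without WT replicate 6 alone the 3 pooled values were 0.20, 0.24 and 0.14, in the same order.

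Klk8 and the antisense RNA 2310002F09Rik, which share exon bases, correlated at 0.43 over 18 libraries and at 0.08 without the 2 libraries farthest for Klk8. In WT the value was 0.71, and it was 0.48 without WT replicates 2 and 6. Klk10, which lies inside the span of the same transcript, had -0.19 with it, and Klk6, outside it, had 0.05.

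**Figure D4:**
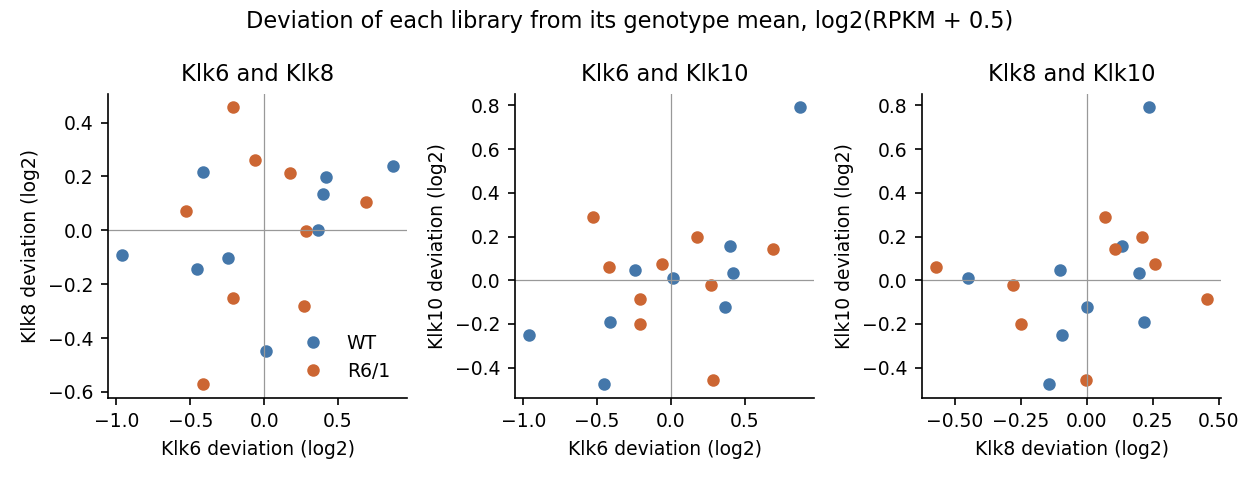
Deviation of each library from the mean of its genotype (log2 of RPKM + 0.5) for the 3 pairs of genes, with 9 WT and 9 R6/1 libraries as points. WT replicate 6 is the point farthest to the upper right in the plot of Klk6 and Klk10, where the correlation over all 18 libraries was 0.49 and 0.24 without it.

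Genes with the most similar pattern across the 18 libraries, by the same correlation, differed for the 3 kallikreins. For Klk8 they were Olfm4, an extracellular glycoprotein (0.92), the cytokine precursor Il16 (0.89), Cyfip1 of the actin-regulating WAVE complex (0.89), the growth factor Tgfb2 (0.89) and Slc35f3, of a solute carrier family (0.88). Their correlations with Klk8 were 0.82 to 0.93 in WT and 0.89 to 0.96 in R6/1, in the same libraries that chose them. Olfm4 went from 1.19 to 0.329 RPKM (log2 difference -1.05, limma adjusted p 8.33e-07), Il16 from 9.02 to 4.61 (-0.90, 2.36e-06), Tgfb2 from 16.0 to 8.47 (-0.87, 1.6e-05) and Cyfip1 from 21.7 to 18.7 (-0.21, 0.000799). Slc35f3 did not pass (adjusted p 0.112), except without WT replicate 2 (0.019).

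For Klk6 the nearest were Osbpl5, a lipid-binding protein (0.79), Tmem231 of the ciliary transition zone (0.78), the elastase Cela1 (0.76), 2510039O18Rik (0.76) and Lgi3, a secreted leucine-rich protein (0.75). Their genotype differences did not share a direction: Osbpl5 rose by 0.38 (limma adjusted p 1.9e-05) and Tmem231 fell by 0.37 (4.56e-05), while the other 3 did not pass. Of these, Lgi3 (adjusted p 0.0608) passed when any of 5 libraries was left out, WT replicates 7, 8 and 9 and R6/1 replicates 2 and 6 (0.0244 to 0.0458), and Cela1 (0.0938) passed without WT replicate 7 (0.0351) or R6/1 replicate 5 (0.028). For Klk10 they were Lrch1 (0.76), Heg1 (0.76), the small GTPase-like Rabl3 (0.76), Ubxn2a (0.75) and the transcription factor Sp4 (0.74). Of these Sp4 rose by 0.42 (adjusted p 3.87e-07) and Ubxn2a by 0.14 (0.0185), and 3 did not pass. Lrch1 had a correlation of 0.93 in WT and 0.17 in R6/1, Rabl3 0.92 and 0.5, and Sp4 0.89 and 0.59. Ubxn2a had 0.83 and 0.61, and Heg1 0.76 and 0.77. WT replicate 6, the highest WT library for Klk10, also stood apart for Lrch1, Rabl3 and Sp4. In the rankings of the 14446 genes, Klk10 came at place 415 for Klk6 and Klk6 at place 501 for Klk10. Klk8 was farther, at place 2118 for Klk6 and 2619 for Klk10, and in its own ranking Klk6 came at 2980 and Klk10 at 3315.

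The receptors and targets of these proteases were mixed. Of the 4 protease-activated receptors, F2r (PAR1), which Klk6 can activate, passed the level filter and rose from 2.43 ± 0.486 to 3.65 ± 1.09 RPKM (SD over 9 libraries each, log2 difference 0.47, limma adjusted p 0.00835). Of 7 known or proposed substrates of Klk8 or Klk6, 2 rose and 2 fell, with a median of -0.07, where 48.3% of all genes tested were called in either direction. Nrg1, the neuregulin-1 gene, rose by 0.39 (adjusted p 0.00962) and L1cam, a neuronal adhesion molecule, by 0.25 (1.07e-05). Mbp, myelin basic protein and also among the oligodendrocyte markers, fell by 0.54 (adjusted p 0.000505). Ephb2, a receptor tyrosine kinase cut by Klk8, had 3.18 and 3.00 RPKM and did not pass (adjusted p 0.393), nor did App or Fn1. Erbb4, the neuregulin receptor, and Fkbp5, downstream of Klk8 in stress responses, did not pass either (adjusted p 0.288 and 0.3).

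Of 13 other serine proteases examined, 8 were tested, 2 rose and 1 fell, with a median of 0.02, again beside 48.3% of all genes called. Furin rose by 0.20 (limma adjusted p 0.00118) and Masp1, a complement protease, by 0.25 (0.0235). Prss23 fell from 5.52 ± 1.14 to 3.04 ± 0.419 RPKM (SD over 9 libraries each, log2 difference -0.75, adjusted p 4.18e-06). Tissue plasminogen activator, Plat, had 13.9 and 13.6 RPKM (adjusted p 0.905), and Prss12, or neurotrypsin, had 6.29 and 7.32 (0.0502).

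Of 20 serine protease inhibitors and related genes, 17 were tested, 3 rose and 6 fell, with a median of -0.01. Of all genes tested, 24.8% rose and 23.5% fell. Serpinb1a had the largest decrease, from 6.53 ± 0.976 to 2.07 ± 0.942 RPKM (SD over 9 libraries each, log2 difference -1.51, limma adjusted p 9e-08). Spink8, a Kazal-type inhibitor, fell by 0.67 (adjusted p 0.000372) and Serpine2, protease nexin-1, by 0.35 (6.7e-05). Spint2, a Kunitz inhibitor of trypsin-like proteases, rose by 0.69 (adjusted p 8.85e-05) and A2m, the general protease trap alpha-2-macroglobulin, by 0.60 (0.009). The neuronal serpin Serpini1 had 77.3 and 74.2 RPKM and did not pass (adjusted p 0.617).

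Most neuronal, oligodendrocyte and astrocyte markers were lower in R6/1, and their part in the values of the 3 kallikreins was not tested. All 8 CA2 and CA3 pyramidal markers fell, with a median log2 difference of -1.01, led by Prkcd (-1.64, limma adjusted p 6e-06) and Rgs14 (-1.54, 4.17e-13). All 6 dentate granule markers fell, with a median of -1.42, and 5 of 6 CA1 markers fell, with a median of -0.38, led by Wfs1 (-1.76, 1.81e-11). Of the inhibitory neuron markers 5 of 6 fell (median -0.33), of the oligodendrocyte markers 8 of 10 (-0.40) and of the astrocyte markers 6 of 6 (-0.55). Of the microglial markers 3 of 6 fell (-0.27), of the endothelial 2 of 6 (-0.20) and of the meningeal 1 of 5 (-0.21), and 0 of 7 choroid plexus markers passed in either direction. One of the endothelial calls, Kdr (adjusted p 0.0477), was kept only when the library left out was WT replicate 4, WT replicate 6 or R6/1 replicate 5, and the other libraries gave 0.0512 to 0.0964. Of 12 activity-regulated genes 9 fell, with a median of -0.67, led by Arc (-1.52, adjusted p 3.46e-06) and Nptx2 (-1.30, 4.29e-09). Over all genes tested, 23.5% were lower.

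The marker lists were also summed in each library. The CA2 and CA3 markers summed to 226 to 369 RPKM in WT and 116 to 148 in R6/1, and the oligodendrocyte markers to 1140 to 1460 and 707 to 1210. The choroid plexus markers summed to 26.0 to 1080 RPKM in WT and 39.1 to 1750 in R6/1, uneven between libraries, with ranges that overlapped. Of the genes of the cell type lists, 0 were at 0 in all libraries. Within genotypes, Klk6 correlated at 0.54 with the mean of the 10 oligodendrocyte markers and at 0.60 without WT replicate 6. Its correlation with the CA2 and CA3 markers was 0.47, and 0.24 without that library. With the microglial markers Klk6 had 0.28, and 0.42 without that library, and with the astrocyte markers 0.21 and 0.24. Klk8 correlated with the CA2 and CA3 markers at 0.51, and at 0.49 without that library. The CA1 markers went the other way for Klk8, at -0.40 and at -0.37 without it, as did the endothelial markers (-0.42), while the choroid plexus markers had 0.44. Klk10 correlated with the CA2 and CA3 markers at 0.56, which was 0.17 without WT replicate 6, and with the CA1 markers at -0.09. These values share libraries and scaling, and how much of any level came from a cell type was not tested.

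WT replicate 6, which had the highest WT level of all 3 kallikreins, also had the highest sum of CA2 and CA3 markers. That sum was 369 RPKM, or 331 without Prkcd, and it stayed the highest of the 9. The library was highest for dentate markers (111 RPKM), in rank 4 of 9 for oligodendrocyte markers, in rank 7 for CA1 markers (177 RPKM against a WT median of 196) and lowest for inhibitory neuron markers (351 RPKM). Which regions of the hippocampus each sample held is not given in the labels.

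**Figure D5:**
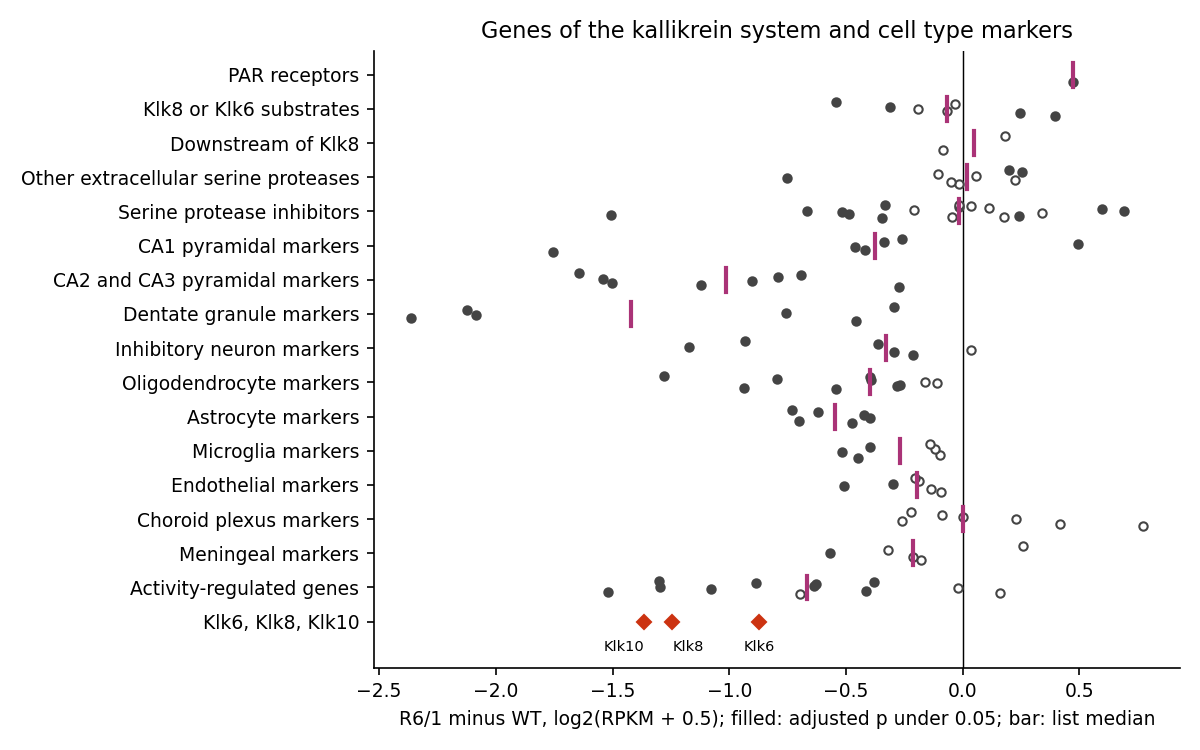
R6/1 minus WT difference (log2 of RPKM + 0.5) of each tested gene in 16 lists, with filled points for an adjusted p under 0.05 by limma, open points for the rest, and a bar for each list's median; diamonds in the bottom line are Klk10, Klk8 and Klk6. The 3 kallikreins lie at -1.36, -1.24 and -0.87, a place at the low end that follows from how they were chosen. Single genes of several lists lie in that range or lower, among them Wfs1 (-1.76), Arc (-1.52), Serpinb1a (-1.51) and Opalin (-1.28). List medians include -1.42 (dentate granule), -1.01 (CA2 and CA3), 0.02 (proteases) and -0.01 (inhibitors).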

How the data were processed

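RNA-seq of hippocampus (9 WT and 9 R6/1 samples) and the lamin B1 domain list of each genotype were used, and ATAC-seq was not analysed here. The submitters' processing notes name TopHat, DESeq2 and mm9 for RNA-seq and Bowtie and mm9 for ChIP-seq; the counter, the annotation and the strand setting are not given in the sources used here. The authors deposited RPKM per gene symbol, and a table of the comparison. Per the file headers, that table gives each gene a mean normalized count (a signal scaled by size factors), a log2 fold change and its error, a score of the test, and p-values before and after adjustment. The deposited domain lists hold 1 score per domain, which was not used; how replicates were combined is not given in the sources used here. The number of columns of per-sample values left unused was 0.

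Klk6, Klk8, Klk10 and all gene lists were chosen with earlier results of these data known. Genes averaging 0.5 RPKM or more over the 18 libraries were tested two-sided on log2(RPKM + 0.5) with limma 3.58.1 (R 4.3.3) and a mean-variance trend, with Benjamini-Hochberg adjustment over 14446 genes and a threshold of 0.05. The fit was also run on simulated data with few changed genes and the same spread setting for every gene. The real data differ in both, so nothing is drawn from it. Reads were recovered from the deposited RPKM through the mean normalized count: between 99.86% and 99.9% of values were whole within 0.05 of a read. Floors and counting errors cover counting error only. Genes named are the 3 members, the other kallikreins, called neighbours within 500 kb, up to 2 called genes per list and direction, and the 5 nearest in pattern; the others named were chosen after their values were seen, and the results of some genes are not reported here. Positions are from NCBIM37 with GENCODE vM1, and upstream sequences from RefSeq on GRCm38.p6. The alternatives tried were pseudocounts of 0.1 and 1, no level filter or one of 2 RPKM, quantile normalization, median centring, scaling by own read totals, the replicate number as a block, limma voom on the recovered reads, the authors' deposited table, a wider window of neighbours and leaving out each library.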

Additional observations from a re-analysis of the deposited data

Results flagged for a closer look

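Among 120 groups of 9 libraries examined for the named genes, 16 had a library apart from the others by Dixon's criterion. Chance meets it in about 1 of 20 independent groups. These groups share libraries, and some genes were named for their likeness to Klk10, so the 16 cannot be weighed against that rate. Klk10 was 2.56 RPKM in WT replicate 6 (50 reads), against 1.47 in the next library, and its log2 difference was -1.27 without it. The same library stood high for 4 other genes, Lrch1 (5.01 RPKM), Rabl3 (5.00) and Sp4 (5.75), which were named for their likeness to Klk10, and Prkcd (38.9), a CA2 and CA3 marker.

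Several other single libraries stood apart. In WT replicate 1, Iglon5 (8.67 RPKM) and Tek (2.36) were low and Spink8 (30.2) was high. WT replicate 5 was high for A2m (3.32) and Cd33 (3.15), and WT replicate 2 was low for Olfm4 (0.690). R6/1 replicate 5 was high for Aqp4 (47.7), Kdr (4.85), Serpinb1a (4.38) and Tek (4.22), and R6/1 replicate 2 was low for Dsp (0.318).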

How the results depend on the processing

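Klk6, Klk8 and Klk10 were lower in R6/1 under every alternative that gave them a value, while the size for the low genes moved. Klk6 had -1.40 by limma voom on the recovered reads, and Klk10 had -2.31 with a pseudocount of 0.1, -0.94 with a pseudocount of 1, -2.86 by voom and -1.90 in the authors' deposited table. With a minimum mean of 2 RPKM, Klk6 and Klk10 were not tested. Leaving out each library gave -0.992 to -0.763 for Klk6, -1.301 to -1.172 for Klk8 and -1.424 to -1.265 for Klk10. It gave 3422 to 3673 genes called higher, 3236 to 3503 lower, 11 to 14 neighbours called, 66 to 73 list genes called and 0 other kallikreins called. The number of other kallikreins called was 2 of 16 with reads when no filter on low values was used. It was 2 of 6 with an adjusted p in the authors' deposited table. In the filtered fit it was 0 of 0 tested, since the filter itself removes them. With no filter, 3 of the 16 had an unadjusted limma p under 0.05, a count given without the share over all genes. The number of neighbours called was 7 with a minimum mean of 2 RPKM, where fewer genes are tested. The correlation of Klk6 and Klk10 was 0.78 in WT, -0.18 in R6/1, 0.20 with a pseudocount of 0.1 and 0.24 without WT replicate 6, an alternative added after the data were seen; without it those of Klk6 and Klk8 and of Klk8 and Klk10 were 0.20 and 0.14. The cause was not tested.

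Among 55 named single genes with a test, Lrch1 and Rabl3, which did not pass, changed sign: Lrch1 to 0.012 under quantile normalization, 0.037 under own totals and 0.008 without WT replicate 6, and Rabl3 to 0.014, 0.040 and 0.027 likewise and 0.013 without R6/1 replicate 4. Leaving out each library gave -0.044 to 0.008 for Lrch1 and -0.058 to 0.027 for Rabl3. Calls on Kdr, Cd33 and Masp1 were lost under at least 1 alternative, and Lgi3, Cela1 and Slc35f3 passed under at least 1. The replicate numbers do not pair the libraries by the labels, and same-numbered libraries had correlations of -0.0533 to 0.237, with 2 of 9 nearest their own number. With the replicate number as a block, Klk6 had -0.87, Klk8 -1.24 and Klk10 -1.36, with 3666 genes higher and 3467 lower, 13 neighbours and 73 list genes called; Masp1 no longer passed (adjusted p 0.0743). Depth limits Klk10 in R6/1, where 37 reads carry the mean of 9 libraries.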
